A study of Ovis aries with 16 samples.

Results

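HK1, SLC16A1 and ALDOA were the 3 genes of glycolysis and lactate transport examined in the left ventricle of fetal sheep. Every probe that the deposited array annotation gives to one of these genes, by gene name, systematic name or description, was taken. This gave 5 of the 15008 probes on the array, 1 for HK1, 2 for SLC16A1 and 2 for ALDOA, and 3 of the 988 genes that had a name. The genes were chosen by their treated-against-twin differences on these same arrays, so those differences are given as a description and support no test. Of the 5 probes, 4 passed the filter on dim probes, which asks that all arrays of some group rise well above background and which 8971 probes passed. The other, SLC16A1 probe 1, was well above background on none of the 16 arrays.

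RNA came from a piece of left ventricle of 16 fetuses, 1 array each, from 8 twin pairs. Catheters were placed in the pregnant ewes' fetuses at 125 to 126 days of gestation, with term at 145 days, and hearts were taken after 5 days of treatment. Losartan, a blocker of the AT1 receptor of angiotensin II, was infused intravenously into one twin of sets 1 to 4 (n = 4), and the co-twins were untreated (n = 4). Angiotensin II, the vasoactive peptide made by renin and angiotensin-converting enzyme, was infused intravenously into one twin of sets 5 to 8 (n = 4), and their co-twins were untreated (n = 4). The labels call the infusions daily in some fields and continuous in others, and the tissue free wall in some and free wall with septum in others. They do not state the sex or breed of the fetuses, or whether untreated twins carried catheters. The series asks how angiotensin II regulates genes of the late-gestation fetal heart.

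Before birth the heart draws much of its energy from glucose and lactate, and after birth it turns towards fatty acids. Hexokinase 1, the product of HK1, traps glucose in the cell by phosphorylating it, which is the entry step of glycolysis. Aldolase A, the product of ALDOA, splits fructose bisphosphate into a pair of triose phosphates further down the same pathway, and is the main aldolase of muscle. SLC16A1 encodes monocarboxylate transporter MCT1, which carries lactate or pyruvate across the plasma membrane together with a proton.

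The probes are shown because each gene's values rest on these few stretches of transcript. Each is 60 bases long, is written as in the scanner files from 5′ to 3′, and lies on its array as a single spot. Capitals mark the 13 bases that the end of ALDOA probe 2 shares with the start of ALDOA probe 1.
HK1: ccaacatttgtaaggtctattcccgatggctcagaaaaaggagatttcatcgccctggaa
SLC16A1 probe 1: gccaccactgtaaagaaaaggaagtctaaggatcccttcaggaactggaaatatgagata
SLC16A1 probe 2: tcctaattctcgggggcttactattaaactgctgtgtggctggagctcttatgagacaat
ALDOA probe 1: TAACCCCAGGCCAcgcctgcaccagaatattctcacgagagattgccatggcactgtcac
ALDOA probe 2: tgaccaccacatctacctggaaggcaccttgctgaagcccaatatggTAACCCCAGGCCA

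The files pair each probe with an expressed sequence tag of sheep, and both probes of SLC16A1 were designed on one tag, as were both probes of ALDOA. GC content was 45.0% in the HK1 probe and in SLC16A1 probe 2, 41.7% in SLC16A1 probe 1 and 55.0% in both ALDOA probes, against a median of 43.3% over all probes of the array. The longest run of bases that the HK1 probe had in common with SLC16A1 probe 2 was 5. In the RefSeq table of assembly ARS-UI_Ramb_v3.0 the HK1 gene lies on chromosome 25 from 24890076 to 24965830. In the same table SLC16A1 lies on chromosome 1 from 90319385 to 90353156 and ALDOA on chromosome 24 from 26727161 to 26732740. Where in these genes the probes fall, in exon or untranslated region, was not determined, since no genome sequence was used here.

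Levels are the log2 of the processed red fluorescence minus the log2 of the 75th percentile of the same array, so that 0 means as bright as that percentile. The percentile was 1099 to 1670 fluorescence units, and 57.3% to 64.1% of probes were well above background on an array. The number of arrays, 4 per group, limits the precision. Each array is a separate fetus by the labels. In a piece of tissue, fewer cells of a type and less RNA per cell cannot be told apart.

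On the first principal component (32% of the variance), 3 arrays stood apart at 30.1 to 39.8, against -19 to -0.4 on the other 13. They held the untreated twin of set 2 in the losartan arm and the angiotensin II fetuses of sets 7 and 8, and all lay in row 2 of slide 2. The control spots that mark the array corners were also brighter there, at a log2 of 17.24 to 17.73, against 14.40 to 15.36 on the other 13. The fourth array of that row, losartan set 4, was at -8.3 on the component. Of 8966 probes measured on every array, 11.3% were higher on all 3 arrays than on each of the other 13, and 9.89% were lower. Differences between treated and untreated twins are therefore also given without twin sets 2, 7 and 8.

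HK1 was brightest on those 3 arrays, which came from an untreated twin of the losartan arm and angiotensin II fetuses, and not from losartan fetuses. Its levels in twin sets 1 to 4 were -0.75, -0.20, -1.09 and 0.003 in losartan fetuses, against -0.70, 1.40, -1.14 and -0.65 in their untreated twins. In twin sets 5 to 8 the levels were -0.41, -0.91, 0.98 and 1.28 in angiotensin II fetuses, against -0.38, -0.53, -0.83 and -0.15 in their untreated twins. The groups overlapped in both arms. The untreated twin of set 2 was the highest of all 16 fetuses, and angiotensin II sets 8 and 7 came next.

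In fluorescence units HK1 read 3250 to 3855 on the 3 arrays, against 549.2 to 1320 on the other 13, and no array fell in between. The gap between the lowest of the 3 and the highest of the 13 was 0.98 on the log2 scale. Of the 8966 probes, 44 (0.491%) had a wider gap upward. The genes were chosen by twin differences that include these 3 arrays. This rank, and those given below for SLC16A1 and ALDOA, are therefore descriptions and support no test. Outside the 3 arrays, the HK1 median was higher on slide 2 than on slide 1, with overlapping ranges. Levels were -0.75 to 0.003 on the other 5 arrays of slide 2 (median -0.20), against -1.14 to -0.41 on the 8 arrays of slide 1 (median -0.76). For SLC16A1 probe 2 the medians were -0.76 and -0.95. The slides held unlike mixes of groups, and a slide difference was not tested.

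By group mean, HK1 stood highest in angiotensin II fetuses at 0.23 ± 1.06 (SD, n = 4), followed by the untreated twins of the losartan arm at -0.27 ± 1.14, the untreated twins of the angiotensin II arm at -0.47 ± 0.29 and losartan fetuses at -0.51 ± 0.50. Each neighbour in this order lay within the spread of the next.

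**Figure D1:**
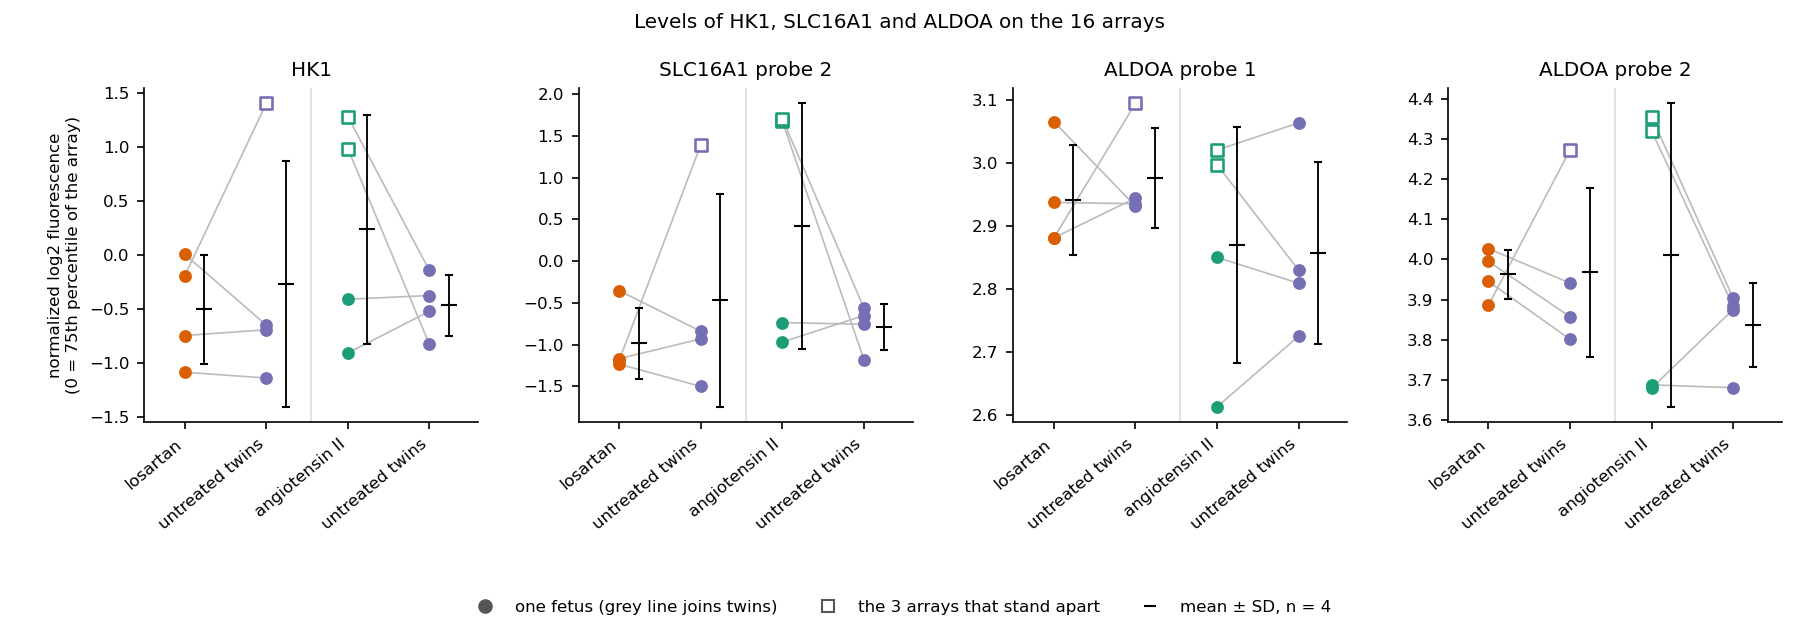
Normalized log2 level (vertical axis, a separate scale for each probe) of HK1, SLC16A1 probe 2 and both ALDOA probes in the 4 groups, 1 point per fetus, with grey lines between twins and black bars for mean ± SD (n = 4). Open squares are the 3 arrays that stood apart; for HK1 they lie at 0.98 to 1.40 and for SLC16A1 probe 2 at 1.39 to 1.70, above every other array.

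SLC16A1 could be followed by probe 2 alone, and its pattern over fetuses was that of HK1 with a wider range. In twin sets 1 to 4 its levels were -1.17, -1.18, -1.23 and -0.36 in losartan fetuses, against -0.93, 1.39, -1.50 and -0.84 in their untreated twins. In twin sets 5 to 8 they were -0.73, -0.97, 1.67 and 1.70 in angiotensin II fetuses, against -0.76, -0.65, -1.18 and -0.56 in their untreated twins. The same 3 arrays were the highest, with angiotensin II sets 8 and 7 above the untreated twin of set 2. Of the other 13 arrays the highest was losartan set 4, from the same row of slide 2.

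Fluorescence of SLC16A1 probe 2 was 3839 to 5246 on the 3 arrays, against 496.7 to 1030 on the other 13. The gap was 1.75 on the log2 scale, and 12 of the 8966 probes (0.134%) had a wider one. SLC16A1 probe 1, from the same sequence tag, read 45.5 to 66.8 fluorescence units on the 3 arrays, against 23.1 to 27.3 on the other 13, and was not well above background on any. No fold is given for it.

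Mean levels of SLC16A1 probe 2 were 0.42 ± 1.47 in angiotensin II fetuses (SD, n = 4), -0.47 ± 1.28 in the untreated twins of the losartan arm, -0.79 ± 0.27 in the untreated twins of the angiotensin II arm and -0.98 ± 0.42 in losartan fetuses. The order was that of HK1. Each difference between neighbours was smaller than the larger SD of the pair, though the mean of the untreated twins of the losartan arm lay above all 4 untreated twins of the angiotensin II arm, which were at -1.18 to -0.56.

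ALDOA varied little between fetuses. Probe 1 was at 2.88 to 3.06 in losartan fetuses, against 2.93 to 3.09 in their untreated twins, and at 2.61 to 3.02 in angiotensin II fetuses, against 2.73 to 3.06 in theirs. The groups overlapped in both arms, and the 3 arrays, at 3.00 to 3.09, overlapped with the other 13, at 2.61 to 3.06.

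For ALDOA probe 2 the levels in twin sets 1 to 4 were 3.99, 3.89, 3.94 and 4.03 in losartan fetuses, against 3.86, 4.27, 3.80 and 3.94 in their untreated twins. In twin sets 5 to 8 they were 3.68, 3.69, 4.36 and 4.32 in angiotensin II fetuses, against 3.88, 3.68, 3.90 and 3.88 in their untreated twins. The 3 arrays were again the highest, by a gap of 0.25, which 408 of the 8966 probes (4.55%) exceeded. Both ALDOA probes took the same sign of the twin ratio in 4 of 8 twin sets, and they differed most in set 7, by 0.50.

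The design sets each treated fetus against its own twin. For HK1 the log2 ratio of losartan fetus to untreated twin was -0.05, -1.60, 0.06 and 0.66 in sets 1 to 4, and that of angiotensin II fetus to untreated twin was -0.03, -0.39, 1.81 and 1.42 in sets 5 to 8. For SLC16A1 probe 2 the ratios were -0.24, -2.58, 0.27 and 0.49 with losartan and 0.02, -0.32, 2.85 and 2.26 with angiotensin II. In both genes the 3 ratios of largest size were those of sets 2, 7 and 8, and the other 5 lay between -0.39 and 0.66. For ALDOA probe 2 the ratios were 0.14, -0.39, 0.15 and 0.09 with losartan and -0.20, 0.01, 0.45 and 0.44 with angiotensin II.

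The limma fit with twin sets as blocks gave a losartan difference of -0.24 for HK1 (SE 0.41, 95% interval -1.15 to 0.68) and of -0.52 for SLC16A1 (SE 0.60, -1.85 to 0.82). The angiotensin II difference was 0.70 for HK1 (SE 0.41, -0.21 to 1.62), a fold of 1.63, and 1.20 for SLC16A1 (SE 0.60, -0.13 to 2.54), a fold of 2.3. For ALDOA the losartan differences were -0.03 and -0.005 for probes 1 and 2, and the angiotensin II differences 0.01 and 0.17.

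None of the 4 member probes passed at an adjusted p under 0.05 in limma, in either arm. Over all 8971 probes 1.22% passed with losartan and 0 with angiotensin II. At an unadjusted p under 0.05, 0 of the 4 probes passed in either arm, against 12.3% of all probes with losartan and 10.5% with angiotensin II. The smallest adjusted p among the members was 0.765 with losartan and 0.483 with angiotensin II, both for SLC16A1 probe 2. Since the rule used these contrasts, nothing is read from the counts.

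Without twin sets 2, 7 and 8 the sign of the HK1 and SLC16A1 estimates turned in both arms. The losartan difference was then 0.22 for HK1 (SE 0.16) and 0.17 for SLC16A1 (SE 0.16), and the angiotensin II difference -0.21 (SE 0.20) for HK1 and -0.15 (SE 0.19) for SLC16A1. Those fits hold 3 losartan pairs and 2 angiotensin II pairs. ALDOA probe 1 gave 0.02 with losartan and -0.04 with angiotensin II, and ALDOA probe 2 gave 0.12 and -0.09 (SE 0.11 with losartan and 0.13 with angiotensin II for each probe). In these paired fits the direction of the HK1 and SLC16A1 differences over all 8 twin sets thus depended on sets 2, 7 and 8.

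**Figure D2:**
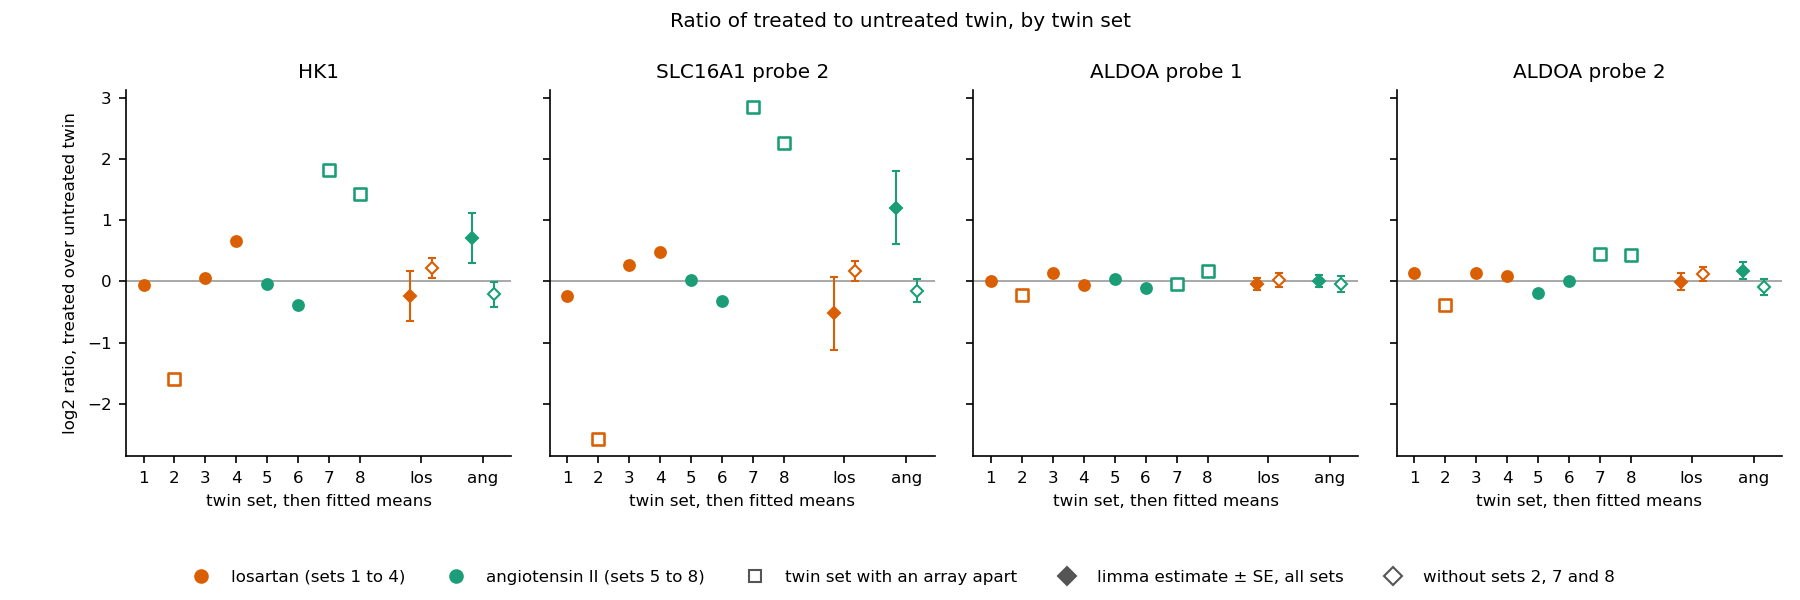
Log2 ratio of treated to untreated twin (vertical axis) by twin set for HK1, SLC16A1 probe 2 and both ALDOA probes, then the limma estimates ± SE with all sets (filled diamonds) and without sets 2, 7 and 8 (open diamonds). Open squares are sets with an array that stood apart; in HK1 they lie at -1.60, 1.81 and 1.42, and the estimates change sign when these sets are left out.

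Slides were unevenly filled: slide 1 held 1 losartan and 2 angiotensin II fetuses, and slide 2 held all 3 arrays that stood apart. In the losartan arm the untreated twins of sets 1, 3 and 4 lay on slide 1, and the losartan fetuses of sets 1, 2 and 4 on slide 2. The pairs of sets 1, 4, 5 and 7 were split between the slides, so their twin ratios also carry any slide difference. Within slide 1, in fits without the twin set, the losartan difference was -0.26 for HK1 (SE 0.27) and -0.14 for SLC16A1 (SE 0.30). The angiotensin II difference there was 0.02 (SE 0.23) for HK1 and 0.06 (SE 0.26) for SLC16A1. Within slide 2 the losartan difference was -1.71 for HK1 and -2.30 for SLC16A1. The angiotensin II difference there was 1.39 for HK1 and 2.35 for SLC16A1. On slide 2 the single untreated twin of the losartan arm and both angiotensin II fetuses were the arrays that stood apart, so treatment and array cannot be told apart there.

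With the slide as a further block beside the twin set, the losartan difference was -0.72 for HK1 (SE 0.37) and -1.20 for SLC16A1 (SE 0.55), and the angiotensin II differences were 0.70 and 1.20. When blocks for both slide and row were added, the losartan difference was -0.46 for HK1 (SE 0.26) and -0.85 for SLC16A1 (SE 0.44). The angiotensin II difference was then 0.12 for HK1 (SE 0.28) and 0.41 for SLC16A1 (SE 0.46), less than its SE in both genes. In the authors' deposited value table the losartan difference was -0.76 for HK1 (SE 0.27) and -1.04 for SLC16A1 (SE 0.40). None of the differences in these block fits or in the value table passed in limma. The fits within a single slide are not covered by this, since a group there rests on a lone array.

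The angiotensin II effect minus the losartan effect was 0.94 for HK1 (SE 0.58) and 1.72 for SLC16A1 (SE 0.84), and 0.05 and 0.18 for ALDOA probes 1 and 2. None of the 4 probes passed in limma, against 1.64% of all probes, and at an unadjusted p under 0.05 0 of 4 passed, against 20.9%. In the authors' deposited value table the same fit gave 1.46 for HK1 and 2.32 for SLC16A1, which passed (limma adjusted p = 0.0282 and 0.0241). There 1734 of all 8971 tested probes passed for this difference, so a pass was far more common than in the processed signal. Over the alternatives tried, the estimate of this difference ran from -0.43 to 3.11 for HK1 and from -0.32 to 4.64 for SLC16A1. The highest values came from the fit within slide 2, which leaves out the twin set. There the only untreated twin of the losartan arm and both angiotensin II fetuses were the arrays that stood apart. Without twin sets 2, 7 and 8 the difference was -0.43 for HK1 (SE 0.26) and -0.32 for SLC16A1 (SE 0.25).

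Untreated twins of the angiotensin II arm and of the losartan arm differed by -0.20 for HK1 (SE 0.47), -0.32 for SLC16A1 probe 2 (SE 0.53), and -0.12 and -0.13 for ALDOA probes 1 and 2. None of these differences passed in limma, where 0 of all probes passed, and 0 of 4 had an unadjusted p under 0.05, against 3.34% of all probes. Leaving out sets 2, 7 and 8 gave 0.38 for HK1 and 0.39 for SLC16A1.

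HK1 and SLC16A1 followed each other over the arrays, and this was seen outside the 3 arrays too. Their levels had a Pearson r of 0.96 over 16 arrays, 0.78 over the 13 other arrays and 0.93 over the 10 arrays of twin sets 1, 3, 4, 5 and 6. The points share slide, array row and labelling, and r is given as a description.

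**Figure D3:**
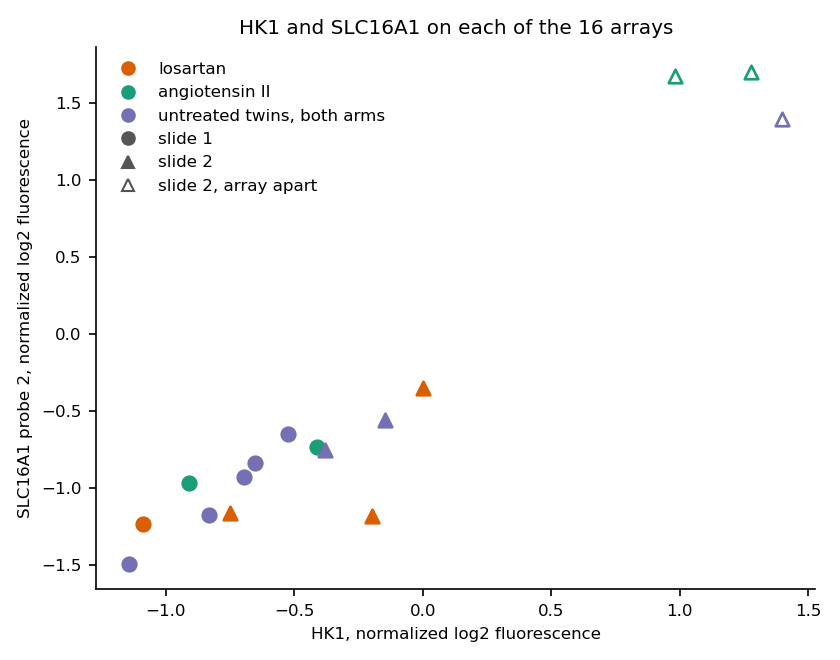
Level of SLC16A1 probe 2 (vertical axis) against that of HK1 (horizontal axis), both normalized log2 fluorescence, 1 point per array, with circles for slide 1 and triangles for slide 2. The 3 open triangles at the upper right are the arrays that stood apart; the other 13 run from the lower left up to losartan set 4.

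Among 503 other named and tested genes, those most like HK1 after the twin set means were removed were SLC16A1 (r = 0.989), DERL1 (r = 0.988) and CXCL1 (r = 0.985). Those most like SLC16A1 were DERL1 (r = 0.997), CXCL1 (r = 0.994) and HK1 (r = 0.989). DERL1 encodes derlin 1, which acts in the disposal of misfolded proteins from the endoplasmic reticulum, and CXCL1 encodes a chemokine that attracts neutrophils. On the 3 arrays CXCL1 was at 7.24 to 7.45, against 2.85 to 4.37 on the other 13, and DERL1 at 0.67 to 1.07, against -1.28 to -0.23. Over the 10 arrays of the 5 other twin sets, r with HK1 was 0.896 for SLC16A1, 0.965 for DERL1 and 0.802 for CXCL1. With twin set means removed, both arrays of a set mirror each other. These r thus rest on 5 twin differences, and those over all 16 arrays on 8.

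Likeness with HK1 when twin set means were kept named DERL1 (r = 0.986), CXCL1 (r = 0.967) and SLC16A1 (r = 0.956). For SLC16A1 it named CXCL1 (r = 0.981), C-JUN (r = 0.959), a subunit of the transcription factor AP-1, and HK1. For C-JUN r was 0.41 over the 10 arrays. ALDOA, by its brighter probe 2, was closest to PPARGC1A (r = 0.948), a coactivator of mitochondrial genes, to CXCL1 (r = 0.944) and to ENDOG (r = 0.941), a mitochondrial nuclease. Over the 10 arrays these were 0.834, 0.470 and 0.725. With the means kept, ALDOA was closest to FGFR1 (r = 0.888), a receptor of fibroblast growth factors, IGFBP5 (r = 0.882), which binds insulin-like growth factors, and ATP6V0C (r = 0.881), a subunit of the vacuolar proton pump. Over the 10 arrays r was 0.674 for FGFR1, 0.628 for IGFBP5 and 0.519 for ATP6V0C.

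Around the 3 genes, 94 others of glucose metabolism were listed in 6 groups, of which 19 were measured. With losartan 8 of the 19 had estimates above 0 and 11 below (median -0.03, against 0.007 over all probes), 1 passed as higher and 0 as lower, where 1.22% of all probes passed. With angiotensin II 10 were above 0 and 9 below (median 0.09, against -0.026), and none passed in limma. At an unadjusted p under 0.05 there were 3 of 19 with losartan and 2 of 19 with angiotensin II, near the 12.3% and 10.5% of all probes. For the angiotensin II effect minus the losartan effect, 8 of 19 had an unadjusted p under 0.05, against 20.9% of all probes. In that contrast 1 of the 19 passed, as lower, where 1.64% of all probes passed. Without twin sets 2, 7 and 8 none of the 19 passed in either arm, with medians of 0.03 and -0.08.

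MYC, a transcription factor that drives glycolytic genes among many others, was the one that passed, and it rose with losartan. Its level was 3.19 to 3.45 in losartan fetuses, against 2.61 to 2.76 in their untreated twins. The losartan difference of MYC was 0.65 (SE 0.12, limma adjusted p = 0.0324). Its log2 ratios were 0.58, 0.75, 0.46 and 0.80 in sets 1 to 4 and -0.28, -0.48, -0.08 and 0.12 in angiotensin II sets 5 to 8. The angiotensin II effect minus the losartan effect was -0.83 (limma adjusted p = 0.0440). Without sets 2, 7 and 8 it was -0.99 and did not pass (limma adjusted p = 0.0742), and over 21 alternatives it passed in 7 (adjusted p 0.00897 to 0.372). Without sets 2, 7 and 8 the losartan difference was 0.61 and did not pass (limma adjusted p = 0.0655), and over 21 alternatives it passed in 8 (adjusted p 0.0069 to 0.395).

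Of the glucose transporters, 2 were measured. SLC2A4, the insulin-responsive transporter GLUT4 of heart and muscle, had a losartan difference of 0.35 (SE 0.14, limma adjusted p = 0.362), with a ratio above 0 in 4 of 4 sets, as 10.5% of all probes had. Its angiotensin II difference was -0.12 (SE 0.14), and without sets 2, 7 and 8 the differences were 0.22 with losartan and -0.09 with angiotensin II. SLC2A3, the transporter GLUT3, had -0.08 with losartan and -0.03 with angiotensin II (SE 0.16 each), and -0.19 and 0.32 without those sets. SLC2A1, SLC2A2, SLC2A5 and SLC2A8 had probes on the array but none that passed the filter on dim probes.

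Among glycolytic enzymes GAPDH, which oxidizes glyceraldehyde phosphate, had the smallest unadjusted p. Its angiotensin II difference was -0.55 (SE 0.18, limma adjusted p = 0.458), with ratios of -0.16, -0.19, -1.01 and -0.86 in sets 5 to 8, below 0 in 4 of 4, as in 11.0% of all probes. Without sets 2, 7 and 8 it was -0.17, and its 5 probes ranged from -0.55 to -0.12 in the whole set. The losartan difference of GAPDH was 0.31 (SE 0.18), and 0.15 without those sets.

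PFKM, the muscle phosphofructokinase that commits sugar to glycolysis, had -0.03 with losartan and -0.25 with angiotensin II (SE 0.15 each), and 0.16 and -0.33 without sets 2, 7 and 8. ENO3, the muscle enolase, had 0.14 and -0.07 (SE 0.17 each), and 0.27 and -0.38 without those sets. Neither passed in either arm.

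LDHA, the muscle-type subunit of lactate dehydrogenase and the other measured gene of lactate handling, had a losartan difference of -0.06 and an angiotensin II difference of 0.23 (SE 0.16 each), and of 0.03 and 0.41 without sets 2, 7 and 8. Its ratios in sets 5 to 8 were 0.53, 0.30, 0.53 and -0.45, so it did not share the high values of SLC16A1 in both sets 7 and 8. None of the 11 listed genes of the pyruvate dehydrogenase complex and its kinases had a named probe among those analysed here.

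In glycogen, gluconeogenesis and the pentose phosphate path, 7 genes were measured and none passed. PYGL, the liver glycogen phosphorylase, had 0.25 with losartan and 0.09 with angiotensin II (SE 0.13 each), and 0.29 and 0.20 without sets 2, 7 and 8. TALDO1, a transaldolase, had 0.05 and -0.24 (SE 0.13 each), and 0.06 and -0.24 without those sets. G6PC1, a catalytic subunit of glucose-6-phosphatase, had 0.17 and 0.39 (SE 0.22 each), and 0.03 and 0.04 without those sets.

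Among regulators, TXNIP, which restrains glucose uptake, had 0.53 with losartan and 0.43 with angiotensin II (SE 0.24 each, limma adjusted p = 0.410 and 0.504), and 0.73 and 0.10 without sets 2, 7 and 8. HIF1A, the oxygen-sensitive factor that raises glycolytic genes in hypoxia, had -0.25 and 0.21 (SE 0.13 each), and -0.16 and 0.14 without those sets. PRKAA2, a catalytic subunit of AMP-activated protein kinase, had -0.25 with losartan and 0.42 with angiotensin II (SE 0.19 each, limma adjusted p = 0.629 and 0.477). PRKAA2 was the 1 gene of the 19 whose levels on the 3 arrays all lay above the other 13, and 0 of the 19 lay all below, where 11.3% of all probes lay above and 9.89% below. Without sets 2, 7 and 8 its differences were -0.03 and 0.08.

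**Figure D4:**
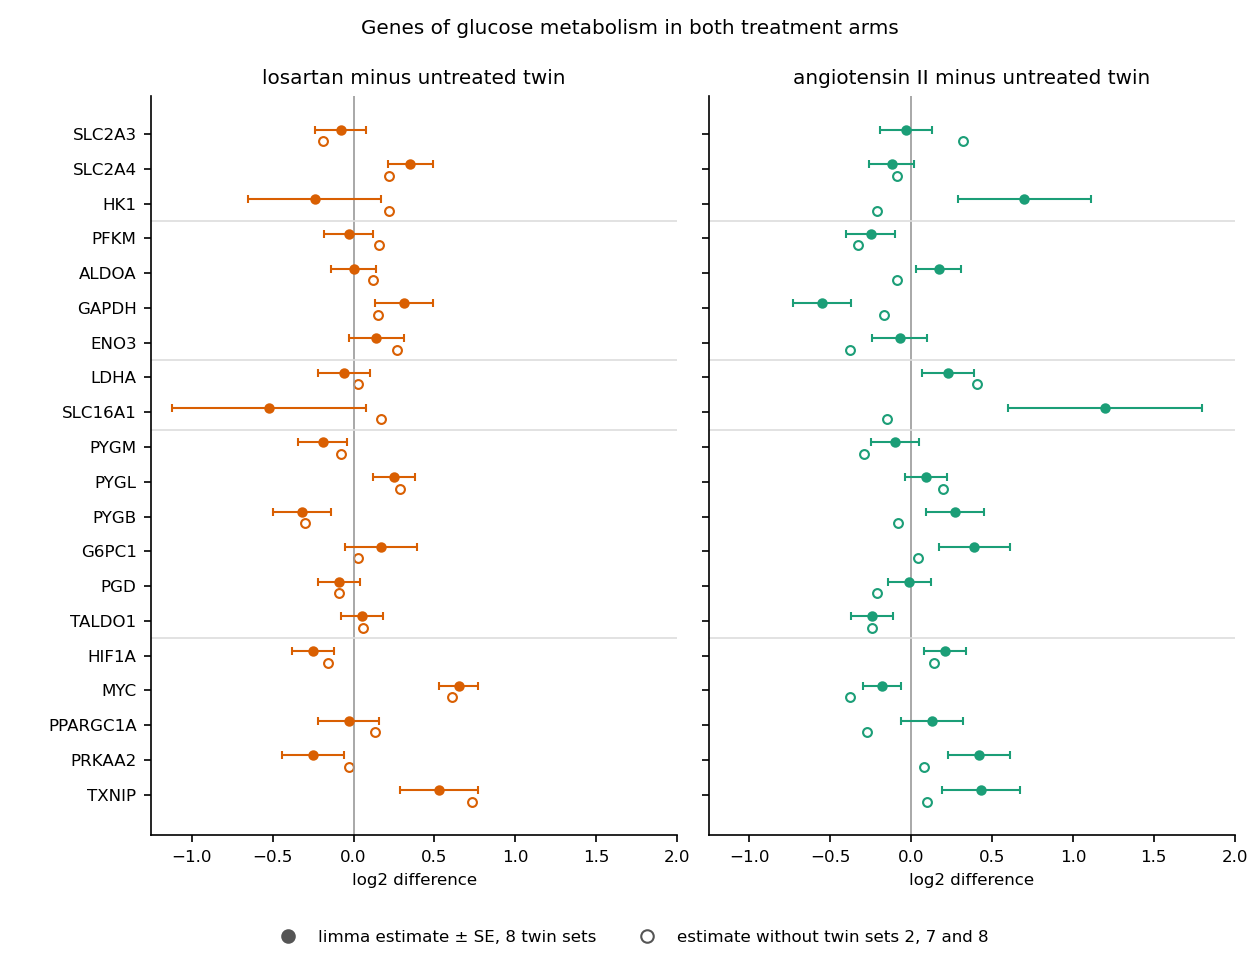
Log2 difference (horizontal axis) between treated fetus and untreated twin for HK1, SLC16A1, ALDOA and other measured genes of glucose metabolism, with losartan in the left panel and angiotensin II in the right. Filled points are limma estimates ± SE over 8 twin sets, open points are estimates without sets 2, 7 and 8, and light lines part the gene groups; MYC at 0.65 in the left panel is the one that passed.

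Of 21 listed cardiomyocyte genes 3 were measured, MYH7, TPM1 and MB, which encode sarcomere proteins and myoglobin. Their summed signal, in units of the array's 75th percentile, was 133 to 154 in losartan fetuses, against 134 to 164 in their untreated twins. It was 129 to 144 in angiotensin II fetuses, against 132 to 158 in theirs. No other tissue was compared. The sum rests mainly on TPM1 and MB, since MYH7 was the dimmest of the 3. The losartan difference of MYH7 was -0.70 and its angiotensin II difference 0.61 (SE 0.35 each). Without sets 2, 7 and 8 they were -0.35 and -0.20. The sum over 3 of 7 listed smooth muscle genes was 13.4 to 20.3 in losartan fetuses, against 30.1 to 43.6 in their untreated twins, and 52.2 to 76.1 in angiotensin II fetuses, against 29.3 to 43.4 in theirs. Of its genes CNN1, MYL9 and MYLK, the levels of MYLK overlapped between treated and untreated fetuses in both arms. The losartan differences of CNN1, MYL9 and MYLK were -1.42, -1.06 and -0.36, and the angiotensin II differences 1.09, 0.93 and -0.20. HBB, the 1 measured gene of 15 listed erythroid ones, ranged widely, from 3.12 to 25.8 in losartan fetuses, against 0.668 to 9.67 in their untreated twins, and from 0.381 to 9.67 in angiotensin II fetuses, against 1.24 to 13.6 in theirs. The sum over 3 of 9 listed neutrophil granule genes was 3 to 16.1 in losartan fetuses, against 0.783 to 2.26 in their untreated twins. It was 0.755 to 5.76 in angiotensin II fetuses, against 0.645 to 3.17 in theirs. Sums over the measured endothelial, fibroblast and leukocyte genes overlapped between treated and untreated fetuses in both arms. MYH7 and COL1A2, a fibroblast collagen chain, were higher on the 3 arrays that stood apart than on each of the other 13, as were 11.3% of all probes. The part of these cell types in the values of HK1, SLC16A1 and ALDOA was not tested.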

How the data were processed

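The members and gene lists were chosen with earlier results of these data known. Per the file headers, the deposited intensity of each spot had its background subtracted and its spatial trend removed in Agilent Feature Extraction 10.7.3.1, and arrays were not normalized to one another. The authors' deposited value table tracked the natural log (ln) of mean spot signals, with r of 0.9978 to 0.9991, slopes of 1.018 to 1.0542 and column medians of 5.7927 to 5.8025. The sources used here do not give its method, and it served as an alternative.

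Control spots and outlier spots (3 to 9 per array) were left out, spots of a probe were averaged, and log2 values were scaled to the 75th percentile of each array. Names came from the files and the RefSeq gene table (1667 of 15008 probes named). Tested probes were well above background throughout at least 1 group. limma 3.58.1 (R 4.3.3) was fitted on 16 arrays with the 8 twin sets as blocks and 1 term per treatment (6 residual degrees of freedom); the untreated arms were compared over 8 arrays with no block. Tests were two-sided, with Benjamini-Hochberg adjustment over 8971 probes, and the fit was tested on simulated data. No probe was saturated.

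The twin pairing comes from the labels; deviations from group means correlated at 0.22, 0.24, 0.46, 0.08, -0.04, 0.28, 0.15 and 0.53 in sets 1 to 8. Named list genes were those that passed and up to 4 per list with the smallest unadjusted p in either arm, each by its brightest tested probe, and withheld items among them are counted but not reported here; genes of like pattern were the 3 with the highest r. Alternatives changed background correction, scaling, source of values, filter, blocks, slides, twin sets and the variance trend. Figures used matplotlib 3.10.9.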

Additional observations from a re-analysis of the deposited data

Results flagged for a closer look

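Over 30 groups of 4 values for the 5 probes, 4 had a fetus or twin set whose gap to its nearest neighbour, as a share of the range, exceeded the critical value of Dixon's test, and chance gives about 1 in 20. SLC16A1 probe 2 was at -0.36 in losartan set 4, above the other 3 losartan fetuses, which lay at -1.23 to -1.17. ALDOA probe 1 was at 3.09 in the untreated twin of set 2, 1 of the 3 arrays that stood apart, above the other untreated twins of the losartan arm. ALDOA probe 2 was at 3.68 in the untreated twin of set 6, below the others of its group, and its losartan ratio in set 2 was -0.39, with 0.09 to 0.15 in the other 3 sets.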

How the results depend on the processing

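Counts of passing probes in limma were 109 with losartan, 0 with angiotensin II, 147 for the difference of the effects and 0 between untreated arms. In the authors' deposited value table they were 434 with losartan (41.7% higher, against 18.3% in the processed signal) and 1734 for the difference (45.6% higher, against 79.6%). With no replicate block, which ignores the pairing of twins, 0 passed with losartan and 3 for the difference. Slide as a further block gave 71 with losartan and 427 for the difference. Within slide 1 the counts were 41 and 38, and within slide 2 they were 546 with losartan, 353 with angiotensin II, 1880 for the difference and 226 between untreated arms. Probes well above background on all arrays gave 57 with losartan. Without twin sets 2, 7 and 8, 1 passed with angiotensin II, 73 for the difference and 1 between untreated arms. Leaving out 1 twin set at a time gave 33 to 99 with losartan, 0 to 0 with angiotensin II, 48 to 109 for the difference and 0 to 1 between untreated arms; the losartan count fell to 61, 33 and 49 without sets 1, 3 and 4. The causes of these changes were not tested.

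The estimate of HK1 kept its sign in 20 of 22 alternatives with losartan (-1.71 to 0.22) and in 21 of 22 with angiotensin II (-0.21 to 1.39), and that of SLC16A1 probe 2 in 20 (-2.30 to 0.17) and 21 (-0.15 to 2.35). The exceptions leave out set 2, or sets 2, 7 and 8; without set 2 alone the losartan differences were 0.22 and 0.17. Leaving out set 7 gave angiotensin II differences of 0.33 for HK1 and 0.66 for SLC16A1, and leaving out set 8 gave 0.46 and 0.85. ALDOA estimates near 0 changed sign often, with probe 1 keeping it in 14 of 21 with losartan and 13 of 21 with angiotensin II, and probe 2 in 8 and 20 of 22.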
